A study of Mus musculus with 20 samples.

Results

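Ventricular gene expression was compared between tTA mice and wild-type FVBN mice that had both received doxycycline (Doxy). The comparison took the 5 arrays whose titles read tTA with Doxy and the 4 that read FVBN with Doxy, 9 of the 20 Affymetrix mouse arrays in the series. The other arrays held 8 tTA and 2 FVBN control samples without Doxy, which entered the fit to estimate the spread, and 1 array whose title gives no group. All were total RNA of mouse cardiac ventricle, and the keywords name the alpha MHC promoter and the FVBN strain as the setting of the tTA transgene. The labels give no age, sex, Doxy dose or duration, no number of transgenic lines, and no statement that each array came from a separate animal. The p-values therefore measure only the spread between these samples, and the precision is set by how few arrays there are.

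The tetracycline transactivator (tTA) is a fusion protein that binds tet operator sequences and switches on genes placed behind them. Doxy, a tetracycline antibiotic, binds tTA and prevents that binding. The alpha MHC promoter is that of Myh6, the adult cardiac myosin heavy chain gene, and it restricts a transgene largely to cardiomyocytes. Ventricular tissue also holds endothelial cells, fibroblasts, smooth muscle and blood cells, and in such bulk samples fewer cells of a type and less RNA per cell cannot be told apart. The level of tTA itself was not analysed here.

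The arrays of both groups were much alike. Pearson's r across probe sets was 0.9945 to 0.9981 within tTA + Doxy, 0.9958 to 0.9976 within FVBN + Doxy, and 0.9935 to 0.9968 between the groups. These correlations are across probe sets, which do not vary independently. The defining ventricular markers were bright and nearly equal in both groups, with Myl2 at a mean log2 intensity of 12.57 in FVBN + Doxy and 12.58 in tTA + Doxy. The atrial marker Myl7 was too dim to be tested (5.19 in both groups). The FVBN + Doxy arrays are numbered 8337 to 8341 and the tTA + Doxy arrays 7399 to 7488, ranges that do not interleave. The labels do not say what the numbers stand for, and anything that went with them and genotype cannot be told apart. For the beta-actin control, the log2 signal ratio of 3' over 5' probe sets was 0.362 ± 0.06 in tTA + Doxy (SD, n = 5) and 0.509 ± 0.079 in FVBN + Doxy (n = 4), with an exact two-sided permutation p = 0.0317 (adjusted over 2 ratios, 0.0635). For the Gapdh ratio the exact two-sided permutation p was 0.794.

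Of 7453 probe sets tested, 437 (5.86%) differed between the genotypes under Doxy at a limma adjusted p below 0.05, 318 higher (4.27%) and 119 lower (1.6%) in tTA + Doxy. The differences were mostly small. The median size of a called difference was 0.254 on the log2 scale among the higher and 0.251 among the lower probe sets, and 17 higher and 13 lower ones exceeded 0.5. Arrays of the 2 groups did not overlap for 724 probe sets (9.71%), among them 267 of the 318 called higher and 84 of the 119 called lower. With each gene read by its brightest probe set, 257 of 5658 genes (4.54%) were called higher and 94 (1.66%) lower, and these shares are the background for the gene groups described here. Of the same genes, 2511 (44.4%) differed by more than 0, the background for counts of genes above 0. The count of calls depended on single arrays. Among FVBN + Doxy arrays, leaving out 8341 gave 241 calls and leaving out 8337 gave 271; among tTA + Doxy arrays, leaving out 7485 gave 271 and leaving out 7488 gave 267.

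**Figure D1:**
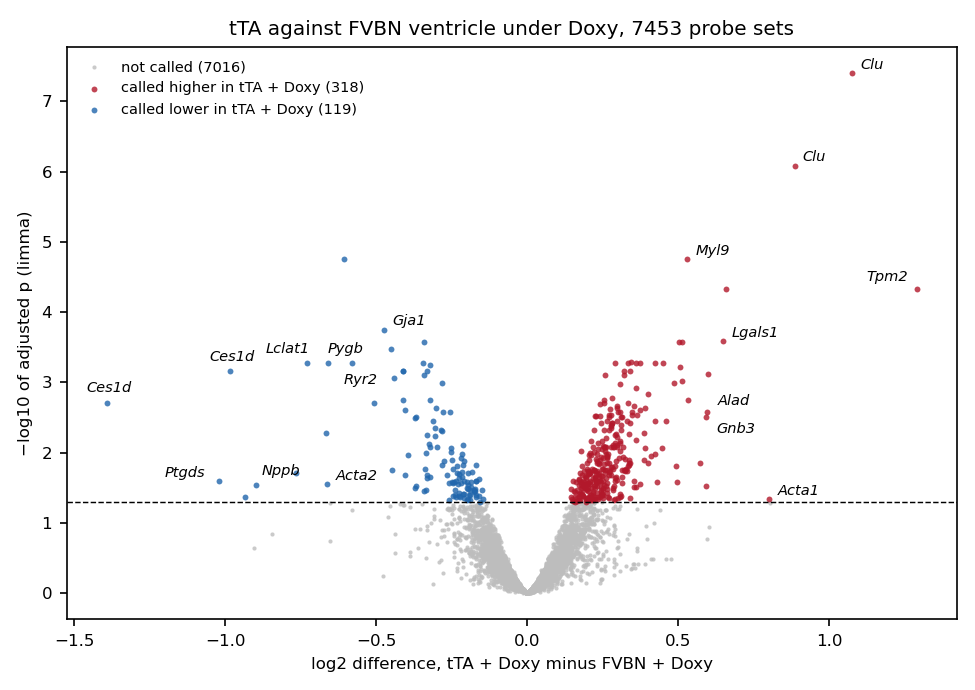
Each point is 1 of 7453 probe sets; the horizontal axis is the log2 difference between tTA + Doxy and FVBN + Doxy and the vertical axis is −log10 of the limma adjusted p, with the threshold dashed. The 318 higher probe sets (red) outnumber the 119 lower ones (blue), and Clu, Tpm2 and Ces1d stand farthest out.

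In the thin filament, Tpm2 and Acta1 were higher in tTA + Doxy. Tpm2, which encodes beta-tropomyosin of the thin filament, read 6.49, 6.66, 7.12 and 6.41 on the 4 FVBN + Doxy arrays and 7.88, 8.05, 7.92, 8.01 and 7.92 on the 5 tTA + Doxy arrays (log2 intensity, in order of array number here and for every gene). No tTA + Doxy array fell within the FVBN + Doxy range, and the lowest tTA + Doxy array lay above FVBN + Doxy array 8340, the highest of its group. The difference was 1.29 ± 0.14 (log2 ± SE, adjusted p = 4.71e-05), or 2.44-fold, the largest rise among named genes. Acta1, the skeletal muscle alpha-actin that the fetal heart also uses, read 10.19, 10.20, 9.85 and 10.39 in FVBN + Doxy and 10.46, 11.43, 11.02, 10.73 and 11.17 in tTA + Doxy. Its groups came close, at 10.39 on FVBN + Doxy array 8341 and 10.46 on tTA + Doxy array 7399, and they did not overlap. The difference was 0.80 ± 0.22 (adjusted p = 0.0461), and this call was lost under 10 of 19 alternatives, among them adjustment for the beta-actin ratio and leaving out any FVBN + Doxy array.

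Most other thin-filament genes did not pass the test. Of 16 tested, 2 rose (Tpm2 and Acta1) and 1 fell, Tnnt1, the slow skeletal troponin T (-0.44 ± 0.07, adjusted p = 8.75e-04), and the list median was -0.0278 beside -0.0134 over all tested genes. A second, dim probe set of Tpm2 that was not tested read -0.08, and one of Tnnt1 read -0.18 ± 0.06 (adjusted p = 0.0903). Values for the cardiac members were 0.08 ± 0.07, adjusted p = 0.481 for the troponin T gene Tnnt2 and -0.07 for Tpm1, neither past the threshold. Mybpc3, cardiac myosin binding protein C, was the only called gene of 8 in the thick filament list (0.31 ± 0.05, adjusted p = 0.00104). Neither myosin heavy chain gene passed the test: Myh6 differed by -0.09 ± 0.05 (adjusted p = 0.312) and Myh7, the beta chain, by -0.03 ± 0.21 (adjusted p = 0.945), and the direction for Myh7 turned with the scaling and with the arrays kept. A second Myh7 probe set read -0.09 ± 0.07 (adjusted p = 0.463).

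Smooth muscle genes split. Myl9, a myosin light chain that regulates contraction in smooth muscle and other cells, read 6.55, 6.58, 6.71 and 6.69 in FVBN + Doxy and 7.20, 7.18, 7.15, 7.13 and 7.16 in tTA + Doxy. The tTA + Doxy arrays lay within a span of less than 0.08 and all above FVBN + Doxy, a difference of 0.53 ± 0.06 (adjusted p = 1.75e-05). Acta2, the smooth muscle alpha-actin, went the other way, reading 8.85, 8.72, 8.62 and 8.22 in FVBN + Doxy and 7.78, 7.92, 8.52, 7.59 and 7.89 in tTA + Doxy. Here tTA + Doxy array 7485 lay among the FVBN + Doxy arrays while the other 4 lay below them all, and the difference of -0.66 ± 0.17 (adjusted p = 0.0278) lost its call under 10 of 19 alternatives. Of 15 tested smooth muscle and pericyte markers, 2 rose (Myl9 and Smtn, smoothelin) and 2 fell (Acta2 and Mcam, a pericyte adhesion molecule). Smtn was not called without array 8337, 8340 or 7485. The contractile markers Tagln (0.00) and Cnn1 (-0.01) did not pass the test.

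The upstream sequences of genes with the largest or surest differences were read from RefSeq promoter windows of mouse build GRCm38.p6, using the 250 bases before each start site. They are shown because the CArG box, the binding motif of serum response factor, which controls many actin and smooth muscle genes, occurs in 482 of 32851 such windows on the strand given (1.47%; the motif reads as the same pattern on both strands). Among the 15 genes with the largest or surest rises, 9 had a window and 2 of them held the motif, Acta1 and Myl9. Among the 15 with the corresponding falls, 12 had a window and 1 held it, Lclat1, which encodes a lysocardiolipin acyltransferase and is described with the lipid genes. Only exact matches were counted, CC then A or T bases alone then GG, as in the capitals shown. Variants with another base were not searched, so a gene without a match may still hold one. Each stretch is written 5' to 3' with the motif in capitals:
Acta1, chr8:123894776-123894878, minus strand: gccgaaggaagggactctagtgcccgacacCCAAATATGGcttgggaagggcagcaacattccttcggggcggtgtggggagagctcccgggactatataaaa
Myl9, chr2:156775273-156775372, plus strand: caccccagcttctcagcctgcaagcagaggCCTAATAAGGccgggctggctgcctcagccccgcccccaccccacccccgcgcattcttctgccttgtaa
Lclat1, chr17:73107839-73107938, plus strand: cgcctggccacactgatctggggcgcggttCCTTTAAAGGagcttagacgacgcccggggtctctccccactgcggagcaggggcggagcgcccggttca
The motif began 73 bases before the start site of Acta1, 161 before that of Myl9 and 116 before that of Lclat1. The Acta1 stretch directly precedes the gene, and RefSeq also annotates Gm29773 over it. A match is a description of the letters, and 1 of these genes was lower and 2 were higher in tTA + Doxy.

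Clu, which encodes the secreted chaperone clusterin, had the smallest adjusted p of all probe sets. It read 8.49, 8.72, 8.45 and 8.59 in FVBN + Doxy and 9.54, 9.61, 9.70, 9.61 and 9.74 in tTA + Doxy. The gap between the groups, from 8.72 to 9.54, exceeded the spread of either. The difference was 1.08 ± 0.08 (adjusted p = 3.94e-08, 2.11-fold), and a second probe set gave 0.89 ± 0.08 (adjusted p = 8.21e-07), both called under every alternative. Lgals1, galectin-1, a lectin that binds beta-galactosides, read 9.60, 9.66, 9.35 and 9.55 in FVBN + Doxy and 10.13, 10.22, 10.31, 9.90 and 10.39 in tTA + Doxy. Its groups were also apart, by 0.65 ± 0.09 (adjusted p = 2.60e-04), and it was the only called gene of 13 tested galectins and annexins.

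Genes at the Z-disc and costamere, which anchor the filaments to each other and to the membrane, gave 4 genes of 22 called higher (18.2%, beside 4.54% of all genes) and 1 called lower. Pdlim1, a PDZ and LIM domain protein that binds alpha-actinin, read 8.46, 8.59, 8.50 and 8.65 in FVBN + Doxy and 8.77, 9.15, 9.01, 9.23 and 9.14 in tTA + Doxy. All 5 tTA + Doxy arrays lay above FVBN + Doxy, by 0.51 ± 0.07 on average (adjusted p = 2.62e-04), whereas a second probe set read -0.13 ± 0.08 (adjusted p = 0.358). The others were Pdlim7 (0.25), the caveolar muscle protein Cav3 (0.24) and dystroglycan, Dag1 (0.19). A second tested probe set was not called for Pdlim7 (-0.05, adjusted p = 0.678) or for Cav3 (0.16, adjusted p = 0.0758). Fhl2, a LIM protein of the cardiac sarcomere, was lower (-0.33 ± 0.07, adjusted p = 0.0101). The list's median was 0.00939, and the count of 4 fell to 1 without FVBN + Doxy array 8337 or 8341 or without tTA + Doxy array 7485, to 2 without 7486 and to 2 with all probe sets tested.

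**Figure D2:**
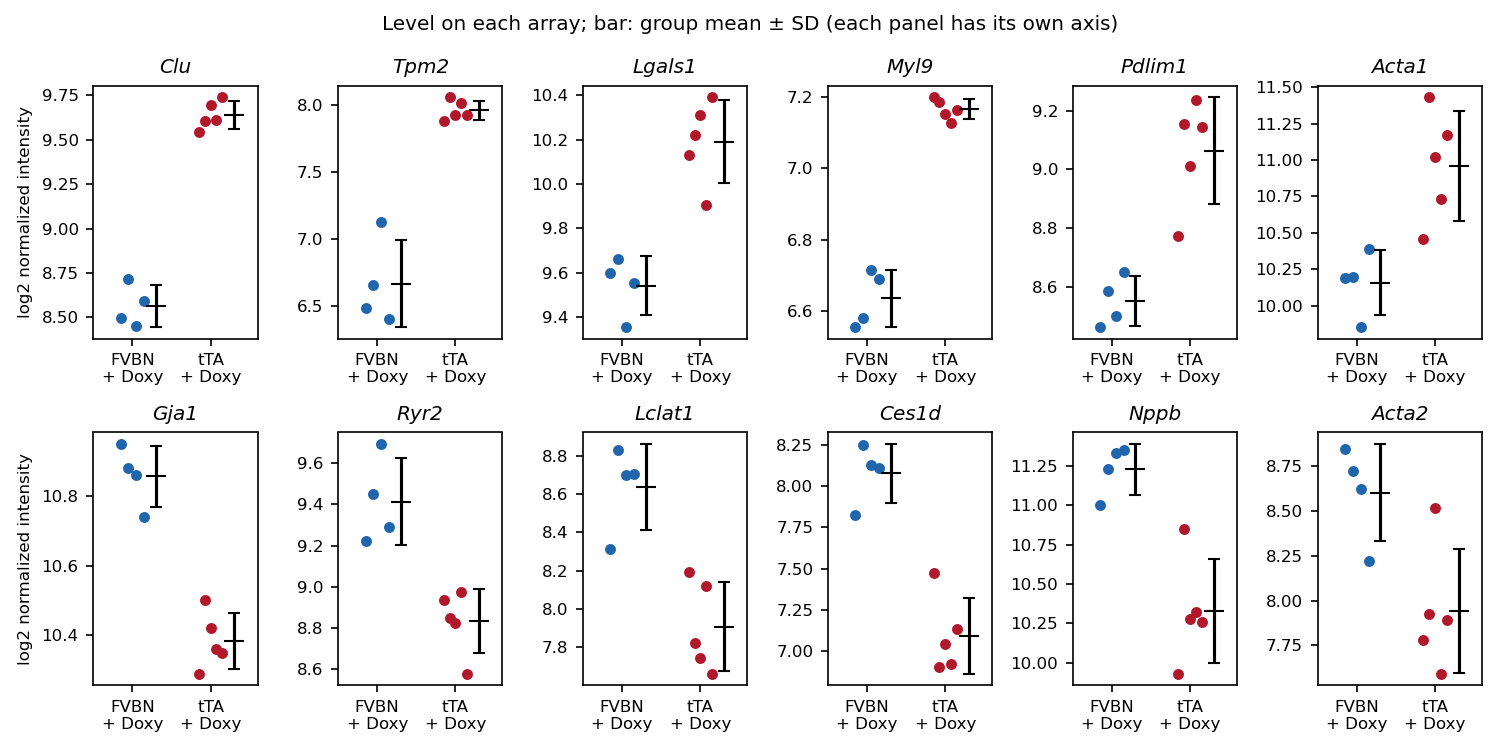
Log2 normalized intensity of 12 genes on each FVBN + Doxy (blue, n = 4) and tTA + Doxy (red, n = 5) array, with group mean ± SD in black; each panel has its own axis, which does not start at 0. The groups are apart for Clu, Tpm2, Lgals1, Myl9 and Pdlim1 above and for Gja1, Ryr2, Lclat1, Ces1d and Nppb below, nearly meet for Acta1 and overlap for Acta2.

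Some transcripts that handle calcium were lower in tTA + Doxy. Ryr2, the channel through which the sarcoplasmic reticulum releases calcium, read 9.22, 9.45, 9.69 and 9.29 in FVBN + Doxy and 8.93, 8.85, 8.82, 8.98 and 8.58 in tTA + Doxy. The highest tTA + Doxy array (8.98) stayed below the lowest FVBN + Doxy array (9.22), and the difference was -0.58 ± 0.09 (adjusted p = 5.27e-04, 1.5-fold lower). Of 19 tested genes for calcium release, uptake and exchange, none was called higher by limma and 4 were called lower (21.1%, beside 1.66% of all genes): Ryr2, Sri, Cacna1c and Slc8a1. Sri, sorcin, a calcium-binding protein that associates with the release channel, differed by -0.41 ± 0.07 (adjusted p = 0.00179). It read 8.26, 8.25, 8.06 and 8.23 in FVBN + Doxy and 7.67, 8.08, 7.70, 7.79 and 7.70 in tTA + Doxy, where array 7424 alone reached the lowest FVBN + Doxy value. Cacna1c, which encodes the pore subunit of L-type calcium channels, differed by -0.33 ± 0.07 (adjusted p = 0.00555) and Slc8a1, the sodium-calcium exchanger, by -0.28 ± 0.06 (adjusted p = 0.0132).

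The pump, storage and sensor genes of the same list did not pass. Atp2a2, the calcium pump of the sarcoplasmic reticulum, read 11.17, 11.03, 11.18 and 11.02 in FVBN + Doxy and 10.85, 10.99, 11.10, 11.12 and 11.08 in tTA + Doxy, overlapping groups with a difference of -0.07 ± 0.08 (adjusted p = 0.63). Calsequestrin, Casq2, differed by 0.01 and S100a1, a calcium sensor, by 0.14. The list's median was -0.0689, and 4 genes were called lower in each fit that left out 1 Doxy array, though not the same 4 in each. Slc8a1 was not called without FVBN + Doxy array 8340 or after adjustment for the beta-actin ratio, which left 3 calls, and 2 further probe sets of it were not called or not tested. Of 15 tested potassium, sodium and chloride channel genes none was called in either direction by limma.

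Junction genes of the intercalated disc, which couple neighbouring cardiomyocytes, were called lower for 2 members and higher for 1. Gja1, the connexin that is the main ventricular gap junction protein, read 10.95, 10.88, 10.86 and 10.74 in FVBN + Doxy and 10.29, 10.50, 10.42, 10.36 and 10.35 in tTA + Doxy. The groups were well apart, by -0.47 ± 0.06 (adjusted p = 1.78e-04), and a second probe set read -0.58 ± 0.18 (adjusted p = 0.0667). Pkp2, plakophilin 2 of the desmosome, was lower on both tested probe sets, by -0.45 ± 0.06 (adjusted p = 3.30e-04) and -0.33 ± 0.09 (adjusted p = 0.034). Ctnnb1, beta-catenin, was higher (0.25 ± 0.07, adjusted p = 0.04). The smaller Pkp2 difference and that of Ctnnb1 each lost the call under 9 of 19 alternatives, adjustment for the beta-actin ratio among them; arrays 8337, 8338, 7485, 7486 and 7488 each decided the first, and 8338, 8341, 7399, 7485, 7486 and 7488 the second. Of 14 tested members 1 rose and 2 fell, with a median of -0.0772, and Jup (-0.21, adjusted p = 0.0718), Dsp (-0.07) and Cdh2 (-0.21) did not pass.

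Of 5 tested genes for natriuretic peptides, their processing and receptors, 2 were called lower. Nppb, brain natriuretic peptide, which the ventricle makes under load, read 11, 11.23, 11.33 and 11.35 in FVBN + Doxy and 9.93, 10.85, 10.28, 10.32 and 10.26 in tTA + Doxy. Array 7424 at 10.85 came nearest to the lowest FVBN + Doxy array, 8337, and the groups did not overlap. The difference was -0.90 ± 0.23 (adjusted p = 0.0288, 1.86-fold lower), with a mean of 10.62 in FVBN control and 10.31 in tTA without Doxy, so that FVBN + Doxy had the highest of the 4 group means. Corin, the protease that processes natriuretic peptides, was lower by a smaller amount (-0.40 ± 0.09, adjusted p = 0.011), a call lost after adjustment for the beta-actin ratio. Nppa, atrial natriuretic peptide, read 8.43, 8.17, 8.22 and 8.41 in FVBN + Doxy and 7.71, 8.11, 8.05, 8.17 and 8.01 in tTA + Doxy, groups that touch without overlapping, and its difference of -0.30 ± 0.13 did not pass (adjusted p = 0.2). The call for Nppb was lost under 8 of 19 alternatives, with adjusted p from 0.0102 to 0.0849 over them.

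Genes of lipid and fuel metabolism held several of the largest falls. Ces1d, a carboxylesterase that hydrolyses lipid esters, read 7.83, 8.25, 8.13 and 8.11 in FVBN + Doxy and 7.47, 6.90, 7.04, 6.92 and 7.13 in tTA + Doxy. The groups were apart and the difference was -0.98 ± 0.14 (adjusted p = 7.0e-04), with -1.39 ± 0.22 (adjusted p = 0.00194) on a second probe set, the largest fall of all named probe sets. Carboxylesterase genes form a family of near copies, so part of either signal may come from a relative. Lclat1, whose enzyme remodels the mitochondrial lipid cardiolipin, read 8.31, 8.83, 8.70 and 8.71 in FVBN + Doxy and 8.19, 7.82, 7.75, 8.12 and 7.66 in tTA + Doxy. Again no arrays overlapped, with a difference of -0.73 ± 0.11 (adjusted p = 5.30e-04). Cidea, a lipid droplet protein, went up, from 6.69, 7.06, 6.66 and 6.86 in FVBN + Doxy to 7.24, 7.27, 7.29, 7.53 and 7.29 in tTA + Doxy. That difference was 0.51 ± 0.08 (adjusted p = 5.96e-04), and 1 of 19 tested lipid droplet, lipase and carboxylesterase genes thus rose and 2 fell.

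Pygb, the brain-type glycogen phosphorylase that breaks glycogen down, read 8.74, 8.84, 8.45 and 8.82 in FVBN + Doxy and 8.04, 8.08, 7.96, 8.17 and 8.01 in tTA + Doxy. It was lower on all 5 arrays, by -0.66 ± 0.10 (adjusted p = 5.30e-04). Of the other 11 tested glycogen genes, Gyg, the glycogenin that primes glycogen, and Pgm1, phosphoglucomutase, rose (0.29 and 0.20). Neither was called when array 8337, 7485 or 7488 was left out, and 1 was called without 8338, 8340 or 8341; a second Gyg probe set read 0.13 ± 0.13 (adjusted p = 0.564). Oxct1, the enzyme that commits ketone bodies to oxidation, read 9.72, 9.71, 9.81 and 9.73 in FVBN + Doxy and 9.20, 9.36, 9.29, 9.61 and 9.01 in tTA + Doxy. All tTA + Doxy arrays lay below FVBN + Doxy, by -0.45 ± 0.11 (adjusted p = 0.0175), a call lost after adjustment for the beta-actin ratio, without FVBN + Doxy array 8340 and with all probe sets tested.

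Glycolytic genes were called higher in 4 of 22 cases (18.2%, beside 4.54% of all genes). These were Pfkl, a phosphofructokinase (0.26), Tpi1, triosephosphate isomerase (0.25), Ldha, the lactate dehydrogenase A chain (0.24), and Pgam2, the muscle phosphoglycerate mutase (0.23). The heart-type chain Ldhb fell (-0.17), and the list median of -0.00814 was near that of all genes. Ldhb was not called under either other scaling, after adjustment for the beta-actin ratio or with only the Doxy arrays. Pgam2 lost its call under 7 of 19 alternatives, the beta-actin adjustment among them. The count of 4 was 2 without FVBN + Doxy array 8341. Citric acid cycle genes were called lower in 2 of 22 cases, Cs, citrate synthase (-0.27), and Idh3a, an isocitrate dehydrogenase subunit (-0.19), with a list median of -0.0742. Neither was called after adjustment for the beta-actin ratio. Idh3a lost its call under 10 of 19 alternatives, both other scalings and arrays 8338, 8341, 7424, 7485, 7486 and 7488 among them, and Cs lost its call under 5, arrays 8337, 8340 and 7399 among them. Respiratory chain and ATP synthase genes were almost all uncalled: Ndufa6 of 26 complex I genes and Ckmt2, the mitochondrial creatine kinase listed with ATP synthase and carriers, fell (-0.22 and -0.25), and Cox17, a copper chaperone for cytochrome oxidase, rose (0.25). Fatty acid genes gave 1 call each way of 29, Hadh (0.42) and Echs1 (-0.24), which catalyse successive steps of beta-oxidation. Ndufa6 and Echs1 each lost the call under 9 of 19 alternatives, both other scalings and the beta-actin adjustment among them; the arrays were 8337, 8338, 8340, 7485 and 7488 for Ndufa6 and 8340, 8341, 7424, 7485 and 7488 for Echs1. Cox17 was not called without 8341.

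Among the lists, genes of the lysosome, the vacuolar proton pump (V-ATPase) and autophagy had the highest share called higher, 12 of 41 (29.3%) beside 4.54% of all genes, and none was called lower by limma. The V-ATPase acidifies lysosomes and related vesicles, and autophagy delivers cell material to them for breakdown. A total of 33 of the 41 differences were above 0 (80.5%, beside 44.4% of all genes). The list median was 0.0847, beside -0.0134 for all genes. Grouped after the values were seen, 6 of 12 V-ATPase genes were called higher: Atp6v1g1 (0.29), Atp6v0e (0.25), Atp6v1b2 (0.25), Atp6v1h (0.25), Atp6v0b (0.20) and Atp6v0d1 (0.17), with a median of 0.206 over the 12. Atp6v0a1 read -0.28 ± 0.11, adjusted p = 0.125, the only V-ATPase gene below 0. Among 12 autophagy genes 3 rose, Map1lc3b (0.29) and Gabarapl1 (0.20), which coat the autophagosome membrane, and the kinase Ulk2 (0.20). A second probe set of Map1lc3b read -0.01 ± 0.05.

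Among 17 lysosomal enzymes and membrane proteins 3 rose, Cd63, a tetraspanin of late endosomes (0.41), Ctsa, cathepsin A (0.29), and Ctsl, cathepsin L (0.25). Ctsd, Ctsb and Lamp1 read 0.01, 0.08 and -0.07 and did not pass. Atp6v1b2, a catalytic-sector subunit of the pump, read 7.36, 7.41, 7.36 and 7.45 in FVBN + Doxy and 7.72, 7.60, 7.49, 7.81 and 7.59 in tTA + Doxy. Ctsa read 7.83, 8.06, 8.12 and 7.96 in FVBN + Doxy and 8.32, 8.27, 8.35, 8.16 and 8.31 in tTA + Doxy. For both genes every tTA + Doxy array lay above every FVBN + Doxy array, by 0.25 ± 0.05 (adjusted p = 0.00692) and 0.29 ± 0.06 (adjusted p = 0.00738). Without Doxy, 1 of the 41 was called higher, beside 57 of all 5658 tested genes. The list median without Doxy was 0.0284, beside 0.0147 for all genes. No member was called in the test of the change of the difference with Doxy. The count of 12 was 5 without FVBN + Doxy array 8341, where 132 genes in all were called higher, and 7 without 8337. It was 6 when tTA + Doxy array 7486 or 7488 was left out, 6 with all probe sets tested and 7 after adjustment for the beta-actin ratio. Macrophages are rich in lysosomes, and whether they had a part in these differences was not tested. Of 22 tested macrophage and leukocyte markers none was called higher by limma and 1 was called lower (Cd14, -0.19, lost under 10 of 19 alternatives). The summed intensity of these markers was 2720 to 3150 in tTA + Doxy and 3020 to 3250 in FVBN + Doxy.

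**Figure D3:**
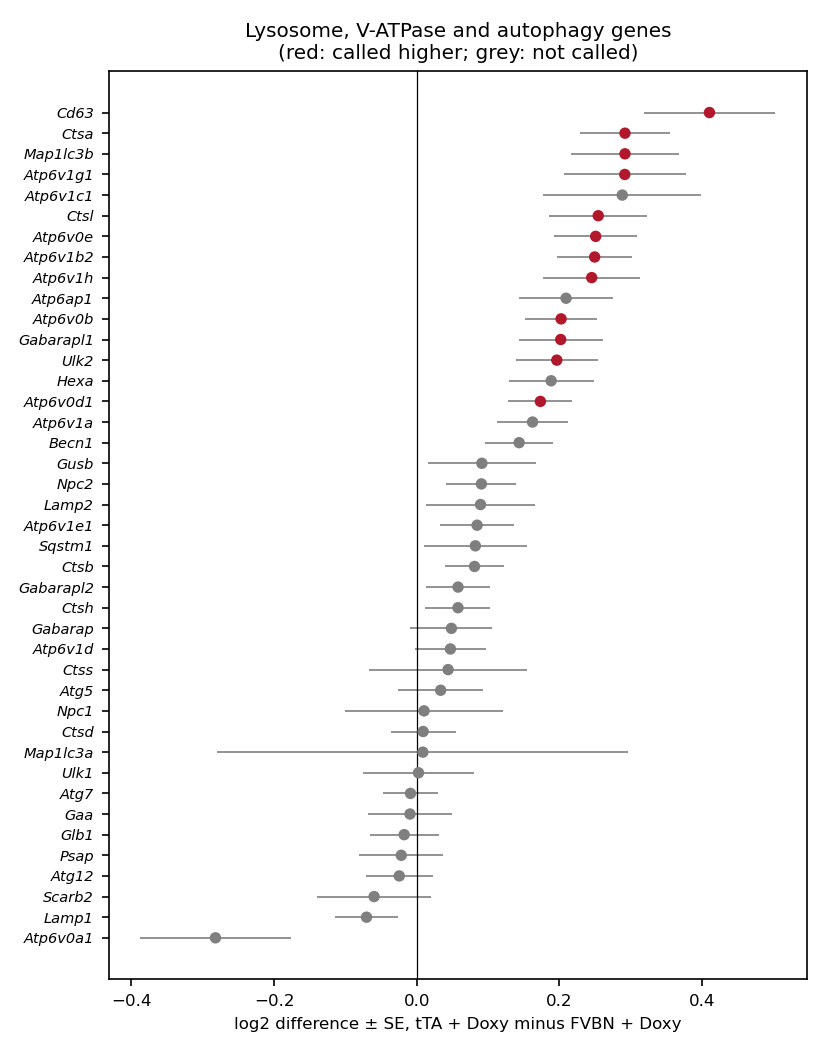
Log2 difference ± SE between tTA + Doxy and FVBN + Doxy for the 41 tested genes of the lysosome, V-ATPase and autophagy list, in order of size. The 12 called genes (red) lie between 0.17 and 0.41, and 33 of 41 points lie above 0.

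The sequence CACGTG, the core of the element bound by TFEB and related factors that control lysosomal genes, was searched in the same 250-base windows. It reads the same on both strands, and 1978 of 32851 windows held it (6.02%). Windows were found for 9 of the 12 called genes of the list, and 3 of these held the motif (Atp6v0b, Ctsa and Ctsl). Of the 29 members not called, 22 had a window and 7 held it, Lamp1 and Ctsd among them, so 3 of 10 windows of called and 7 of 23 windows of uncalled members held it. The stretch before Atp6v0b, a subunit of the membrane sector, is shown because it holds the motif at 2 places, which begin 36 and 18 bases before the start site:
Atp6v0b, chr4:117887334-117887425, minus strand: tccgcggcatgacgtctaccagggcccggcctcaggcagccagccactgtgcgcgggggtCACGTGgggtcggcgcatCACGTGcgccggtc
The capitals mark the motif, and RefSeq also annotates Gm12841 over this stretch.

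Genes for protein tagging, folding and removal mostly lay above 0 by small amounts, and few passed the test. Of 31 tested ubiquitin-pathway genes, 28 differed by more than 0 (90.3%, beside 44.4% of all genes). Limma called 4 of the 31 higher (12.9%, beside 4.54% of all genes) and none lower, and the list median was 0.128. The called genes belong to the system that attaches and removes the ubiquitin-like modifier NEDD8: Nedd8 itself (0.23), Uba3 of its activating enzyme (0.24), and Cops3 (0.26) and Cops4 (0.25), subunits of the COP9 signalosome that removes it. Cops4 read 7.84, 7.92, 7.86 and 7.85 in FVBN + Doxy and 8.01, 8.10, 8.19, 8.10 and 8.20 in tTA + Doxy, without overlap. The difference was 0.25 ± 0.05 (adjusted p = 0.00199), and all 6 tested COP9 subunits lay above 0, from 0.11 to 0.26. Cops3 and Cops4 kept their calls under every alternative, whereas Nedd8 lost its call under 6 of 19 and Uba3 under 9 of 19, and the count of 4 was 2 when FVBN + Doxy array 8341 or tTA + Doxy array 7485, 7486 or 7488 was left out.

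In the proteasome, the protease that degrades ubiquitin-tagged proteins, 2 of 17 genes of the core rose, Psma2 (0.21) and Psma5 (0.21), and 2 of 21 of the cap, Psmc2 (0.17) and Psmd14 (0.23). These were 11.8% of the core and 9.52% of the cap genes, beside 4.54% of all genes. Neither cap gene was called after adjustment for the beta-actin ratio or without array 8341 or 7488, and 1 was called without 8337, 8340, 7399, 7424, 7485 or 7486; in the core, Psma2 was not called after that adjustment or without 8337, 8340 or 7488. The list medians were 0.102 and 0.0828, and 15 of 17 and 18 of 21 genes lay above 0, beside 44.4% of all genes. Heat shock and cytosolic chaperone genes gave 3 calls of 36 (8.33%, beside 4.54% of all genes), all higher: Clu, Stip1, which links the chaperones Hsp70 and Hsp90 (0.39 ± 0.07, adjusted p = 0.0023), and the cyclophilin Ppid (0.32), with a median of 0.103. The count of 3 was 2 without FVBN + Doxy array 8341 and 5 without tTA + Doxy array 7399. Ppid was not called without 8341 or with all probe sets tested. In the endoplasmic reticulum, 2 stress regulators of 27 genes rose, Atf6 (0.30) and Ddit3 (0.24), and the median was 0.00638. Neither was called without FVBN + Doxy array 8341, and Ddit3 was also not called without 8338.

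Vesicle transport genes gave 5 calls of 64 (7.81%, beside 4.54% of all genes), all higher. Sar1a, Sar1b and Sec23a belong to the COPII coat that carries proteins out of the endoplasmic reticulum; Sar1a read 9.16, 9.28, 9.18 and 9.33 in FVBN + Doxy and 9.53, 9.47, 9.55, 9.64 and 9.61 in tTA + Doxy. Its groups did not overlap (0.32 ± 0.05, adjusted p = 7.0e-04). Sar1b differed by 0.19, with -0.00 on a second probe set, and Sec23a by 0.22, with 0.13 (adjusted p = 0.256) on a second. The others were Vamp8, a fusion protein of late endosomes (0.24, with 0.23 on a second called probe set), and Vps26a of the retromer (0.18). The count was 2 without FVBN + Doxy array 8337 or 8341 or tTA + Doxy array 7488, 3 without 7485, and 8 under either other scaling. Genes of the mitochondrial ribosome gave 6 calls of 58 (10.3%, beside 4.54% of all genes), all higher: Mrps25 (0.45), Mrpl54 (0.40), Mrps10 (0.36), Mrpl27 (0.32), Mrpl20 (0.23) and Mrpl43 (0.18). The median of that list was 0.0251, and the count was 4 without FVBN + Doxy array 8337.

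**Figure D4:**
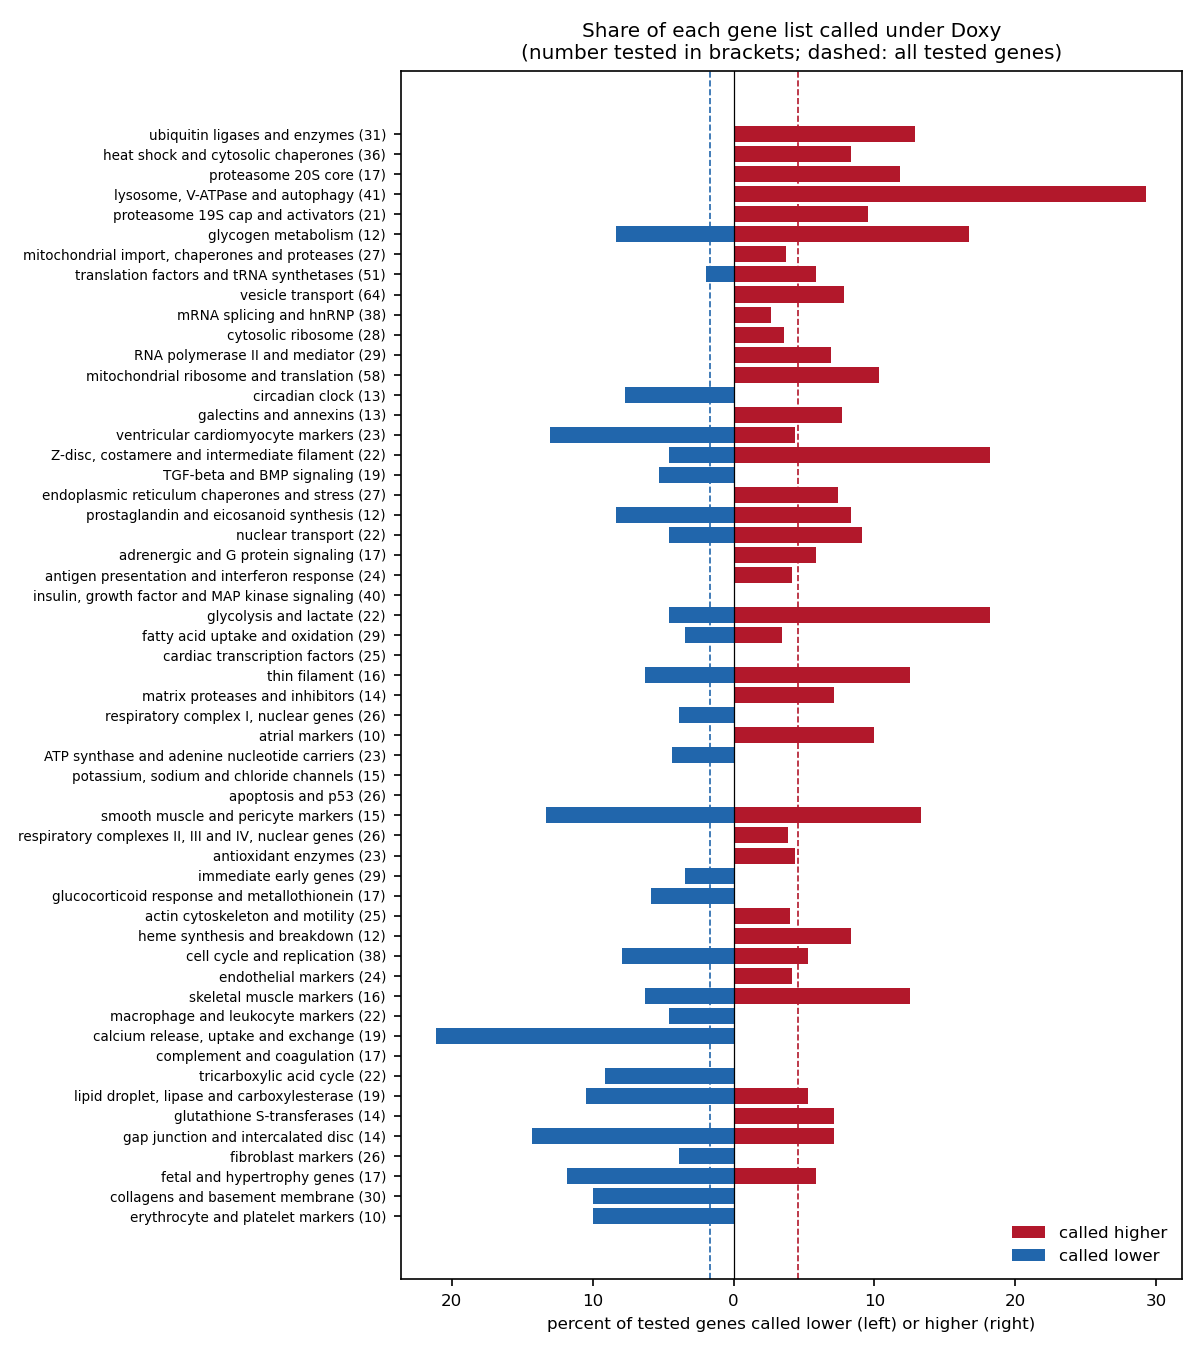
Share of the tested genes of each list called higher (red, right) or lower (blue, left) in tTA + Doxy, for lists with 10 or more tested genes, ordered by median difference; dashed lines mark 4.54% and 1.66%, the shares among all tested genes. The lysosome list has the longest bar to the right (29.3%) and the calcium list the longest to the left (21.1%).

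Several further genes were among the largest differences. Alad, an enzyme of heme synthesis, read 8.27, 8.74, 8.21 and 8.41 in FVBN + Doxy and 8.95, 8.97, 9.09, 8.99 and 9.03 in tTA + Doxy. Its groups were apart by 0.60 ± 0.11 (adjusted p = 0.00261), and it was the only called gene of 12 in heme synthesis and breakdown. Gnb3, a G protein beta subunit, read 6.68, 6.59, 6.66 and 6.49 in FVBN + Doxy and 7, 7, 7.28, 7.16 and 7.56 in tTA + Doxy. It was higher on all 5 arrays (0.59 ± 0.11, adjusted p = 0.00306). Aqp1, the endothelial and red cell water channel, read 7.39, 7.45, 7.43 and 7.38 in FVBN + Doxy and 7.79, 7.67, 7.77, 8.18 and 8.16 in tTA + Doxy. The FVBN + Doxy mean was the lowest of the 4 groups, with 8.04 in FVBN control and 8.20 in tTA without Doxy; the difference of 0.50 ± 0.13 (adjusted p = 0.0258) lost its call under 7 of 19 alternatives and a second probe set read -0.04 ± 0.13. Further rises were Spsb1, an adaptor of ubiquitin ligases (0.57), Ptdss1, a phosphatidylserine synthase (0.53), Itgb1bp1, which binds the tail of beta integrin (0.51, with 0.10 and -0.11 on its other probe sets), Maged2 (0.50) and the aldehyde dehydrogenase Aldh7a1 (0.34). A second tested Aldh7a1 probe set was not called (0.11, adjusted p = 0.152), while those of Spsb1 (0.59) and Ptdss1 (0.26) were.

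Ptgds, the lipocalin-type prostaglandin D synthase, was lower on 3 probe sets. The brightest read 10.35, 11.41, 11.04 and 10.78 in FVBN + Doxy and 10.21, 9.96, 10.20, 9.94 and 10.33 in tTA + Doxy. The FVBN + Doxy arrays were widely spread, with 8337 near the tTA + Doxy range and 8338 highest, and the difference was -0.77 ± 0.18 (adjusted p = 0.0194). The other probe sets gave -1.02 ± 0.25 and -0.93 ± 0.26 (adjusted p = 0.0253 and 0.0426), with overlapping groups, and each of the 3 lost its call without FVBN + Doxy array 8340. Ivns1abp, an actin-associated kelch protein, fell by 0.67 on the log2 scale, from 8.97, 8.89, 9.22 and 8.65 in FVBN + Doxy to 8.06, 8.31, 8.48, 8.15 and 8.35 in tTA + Doxy. No arrays overlapped (SE 0.13, adjusted p = 0.00522). Lrg1, a secreted leucine-rich glycoprotein, Sox4, a transcription factor, Pip5k1b, a phosphoinositide kinase, and Nsmce1, a subunit of the SMC5/6 complex, were lower by smaller amounts (-0.51, -0.32, -0.35 and -0.34), each with groups that did not overlap. A second Pip5k1b probe set was not called (-0.09, adjusted p = 0.326, overlapping groups), while a second Sox4 probe set was called (-0.37).

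Few matrix genes and cell type markers were called. Of 30 tested collagen and basement membrane genes none was called higher by limma and 3 were called lower, Fbln1 (-0.25), Lama5 (-0.21) and Eln, elastin (-0.18). The list median was -0.0932, and 5 of the 30 genes lay above 0 (16.7%, beside 44.4% of all genes). Fbln1 had a second called probe set (-0.30) and 2 that were not called (-0.12, adjusted p = 0.201, and -0.08, adjusted p = 0.461), and a second Lama5 probe set was not called (-0.08, adjusted p = 0.474). None of the 3 was called under either other scaling, after adjustment for the beta-actin ratio, with all probe sets tested or without tTA + Doxy array 7485 or 7488, and 1 was called without FVBN + Doxy array 8340 or 8341. Fibroblast markers gave 1 call of 26, lower (Fbln1), with a summed intensity of 7480 to 7840 in tTA + Doxy and 7980 to 8330 in FVBN + Doxy, ranges that did not overlap. Endothelial markers gave 1 of 24, higher (Aqp1), with 4430 to 4650 in tTA + Doxy and 4400 to 4990 in FVBN + Doxy. Only 6 of the 24 lay above 0, and the list median was -0.0584. The defining endothelial markers Pecam1, Cdh5 and Kdr read -0.08, -0.18 and -0.09, and limma called none of them. Smooth muscle and pericyte markers summed to 2230 to 2470 in tTA + Doxy and 2440 to 2620 in FVBN + Doxy. Erythrocyte and platelet markers gave 1 of 10, lower (Car1, -0.20, lost under 11 of 18 alternatives), with a wide range of 3400 to 7150 in tTA + Doxy and 6750 to 7610 in FVBN + Doxy.

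Atrial markers gave 1 call of 10, higher, which was Clu, and summed to 3040 to 3440 in tTA + Doxy and 2890 to 3050 in FVBN + Doxy, with Clu in the sum. Only 2 of the 10 lay above 0, Clu among them, and the list median was -0.0329. The defining atrial marker Sln differed by -0.02. Adipocyte markers gave 1 of 9, higher, which was Cidea, and summed to 1570 to 1650 in tTA + Doxy and 1540 to 1710 in FVBN + Doxy, while Adipoq was too dim to be tested. Skeletal muscle markers gave 2 higher (Acta1 and Pgam2) and 1 lower (Tnnt1) of 16 and summed to 9320 to 10400 in tTA + Doxy and 8400 to 9310 in FVBN + Doxy, again without overlap and with Acta1 in the sum. Only 3 of the 16 lay above 0 (18.8%, beside 44.4% of all genes), and the list median was -0.0624. In that list, 1 probe set each of Myh4 and Mylpf was at the floor on all 9 Doxy arrays, as was 1 of the fibroblast marker Pdgfra and 1 of the macrophage marker Adgre1, while every other probe set of these 4 genes was above it. Ventricular cardiomyocyte markers gave 1 higher (Mybpc3) and 3 lower (Ryr2, Corin and Ckmt2) of 23 and summed to 59900 to 64700 in tTA + Doxy and 60600 to 63700 in FVBN + Doxy. Limma called none of 9 nerve and Schwann cell markers and none of 6 mesothelial markers. The part that cell composition had in any difference was not tested. No gene was called by limma among 25 cardiac transcription factors, 26 apoptosis and p53 genes, 40 insulin, growth factor and MAP kinase genes or 17 complement and coagulation genes, where 1575 probe sets in all had an unadjusted p below 0.05.

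To ask whether the genotype difference under Doxy was the one seen without it, the difference between tTA and FVBN control was set beside it. The 2 differences share no array. For Clu it was 1.15 without Doxy beside 1.08 with Doxy, for Tpm2 1.73 beside 1.29, for Acta1 1.68 beside 0.80, for Acta2 -1.27 beside -0.66, for Ryr2 -0.82 beside -0.58 and for Ces1d -1.10 beside -0.98. Limma did not call the change of the difference for any of these genes, Acta1 (adjusted p = 0.296) and Acta2 (adjusted p = 0.311) included. Alad (0.10 beside 0.60), Aqp1 (0.15 beside 0.50), Nppb (-0.32 beside -0.90) and the brightest Ptgds probe set (-0.17 beside -0.77) were nearer to 0 without Doxy, but limma did not call the change of the difference for any of these 4 (adjusted p = 0.246, 0.413, 0.443 and 0.338). Of the 318 probe sets called higher under Doxy, 265 had FVBN + Doxy as the lowest of the 4 group means, and of the 119 called lower 69 had it as the highest; choosing probe sets on this contrast makes both more likely. For 299 of the 318 the tTA + Doxy mean also lay above that of FVBN control, and for 114 of the 119 below it. The same tTA + Doxy mean entered the choice of these probe sets, which makes these counts more likely too.

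The change of the genotype difference with Doxy was called for 1 of 7453 probe sets (0.0134%), while 1088 had an unadjusted p below 0.05. It belonged to Gstm5, a glutathione S-transferase, which read 9.41, 9.13, 9.06 and 9.41 in FVBN + Doxy and 9.51, 9.34, 9.61, 9.43 and 9.53 in tTA + Doxy. These groups overlapped and differed by 0.23 ± 0.15 (adjusted p = 0.38). Without Doxy tTA lay 1.85 above FVBN control, with means of 11.13 ± 0.31 (SD, n = 8) and 9.29 ± 0.04 (n = 2), and the difference of the differences was -1.61 (adjusted p = 0.0108). The other tested Gstm5 probe sets read 0.60 ± 0.24, -0.06 ± 0.10 and -0.11 ± 0.07 under Doxy, and the family's members resemble each other in sequence. The call depended on the FVBN control arrays, of which there are 2: without array 8177 no probe set was called.

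**Figure D5:**
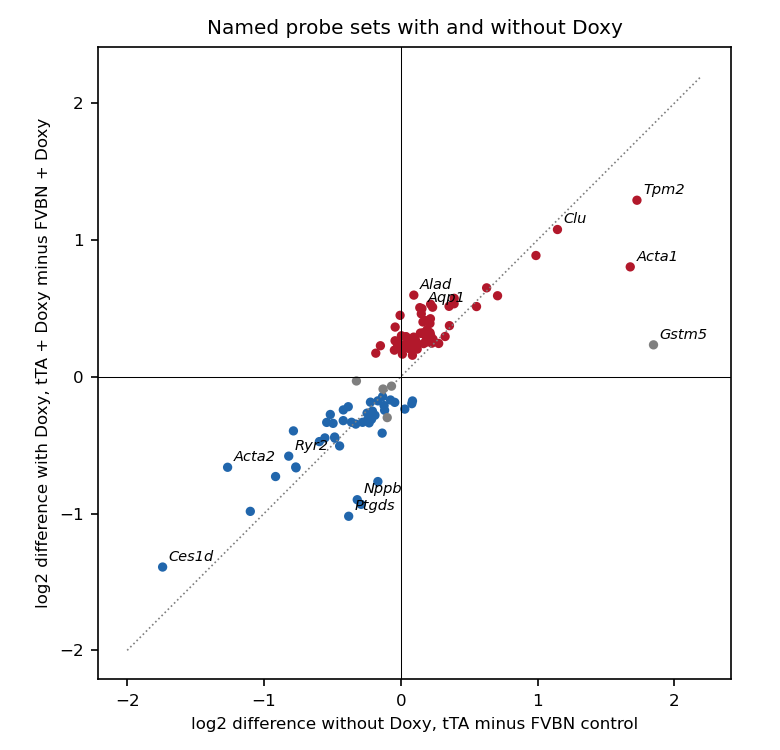
Log2 difference between tTA and FVBN control without Doxy (horizontal) and between tTA + Doxy and FVBN + Doxy (vertical) for the 119 named probe sets, with equality dotted; red and blue mark calls under Doxy, which chose most of these probe sets, and grey those not called. Gstm5 stands at 1.85 without Doxy and 0.23 with it, far to the right of the line, while Clu lies close to it.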

How the data were processed

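The authors deposited 1 table of linear intensity values for 12488 probe sets on 20 arrays of mouse ventricle; how they were summarized and normalized is not given in the sources used here. Groups came from the array titles. Leaving out 66 control probe sets kept 12422, of which the platform annotation linked 10833 to 1 gene, 396 to several and 1193 to none. Values were quantile normalized, raised to a floor of 14.37 (their 10th percentile) and put on the log2 scale (R 4.3.3, limma 3.58.1), and the brightest 60% were tested. All 19 arrays with a group entered 1 linear model of 4 group means (lmFit, and eBayes with trend and robust), without covariates, with Benjamini-Hochberg adjustment over 7453 probe sets and a call at an adjusted p below 0.05. A gene in a list was read by its brightest probe set, and lists were described by counts and medians, without a test. The number of arrays sets the precision.

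Named probe sets were, per direction, up to 15 with the largest called change and up to 8 with the smallest adjusted p (1 gene, mean above the median), up to 4 called members of each list by size, a fixed set (Myh6, Myh7, Nppa, Nppb, Acta1, Acta2, Atp2a2, Gja1, Ryr2, Clu, Tpm2, Xist), and those called for the change with Doxy. Xist was too dim to be tested. Its mean log2 intensity was 5.625 ± 0.103 (SD) in FVBN + Doxy and 5.367 ± 0.150 in tTA + Doxy. It was 5.481 ± 0.268 in tTA without Doxy and 4.795 ± 1.035 in FVBN control, the group with the widest spread. Whether the arrays differed in sex was not tested, and every difference without Doxy rests on those FVBN control arrays. The members and lists were chosen with earlier results of these data known. List members named outside that rule were chosen after their values were seen. Control ratios were compared by exact permutation over 126 splits. The fit was tested on simulated data. Alternatives were other scaling, floors and filters, array weights, another variance model, only Doxy arrays, adjustment for the beta-actin ratio, other probe sets and each array left out. Promoter sequences are RefSeq, GRCm38.p6. Plots used Python 3.11.15 and matplotlib 3.10.9.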

Additional observations from a re-analysis of the deposited data

Results flagged for a closer look

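The named probe sets and the 2 control ratios gave 242 groups of 4 or 5 Doxy arrays in which the highest and lowest array were set against the rest, and 18 groups had 1 array far from the others; chance alone gives about 1 in 20. The array values given are log2 intensity of named probe sets.

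Among the tTA + Doxy arrays, 7486 stood apart most often. It was highest for Cidea (7.533), Cox17 (10), Lsm3 (8.02) and Nr1d1 (7.627), and lowest for the second Clu probe set (8.475) and for Eef1b2 (7.796). Array 7424 was lowest for Ctsl (8.415), Nedd8 (7.602) and Tpi1 (10.84) and highest for Sri (8.083), where the next array read 7.786. Array 7399 was highest for Nsmce1 (6.907) and 7488 for Sar1b (8.424).

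Among the FVBN + Doxy arrays, 8338 was highest for Cops4 (7.917) and Sar1b (8.224), 8340 was highest for Hars (5.476) and lowest for Sri (8.059), 8337 was highest for Mcm3 (7.208) and 8341 was lowest for Ckmt2 (11.34).

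The genotype difference of Gstm5 changed with Doxy by -1.614, the 1 change of this kind that limma called.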

How the results depend on the processing

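The 437 calls (318 higher, 119 lower) became 282 with all probe sets tested (196 higher) and 703 with array weights (232 lower). Leaving out each Doxy array in turn gave 241 to 436 calls, 163 to 328 higher and 69 to 117 lower. The lower counts fell to 78 without FVBN + Doxy array 8341, 75 without tTA + Doxy array 7485 and 69 without 7488; the higher to 175 without 8337, 163 without 8341, 196 without 7485 and 198 without 7488. After adjustment for the beta-actin ratio 404 were called, 283 of them shared with the 437. The single called change with Doxy became 6 with arrays scaled to the same median, 6 without further normalization, 5 with the brightest 40% tested and 0 with all probe sets, and 0 to 4 when 1 array was left out: 0 without FVBN control array 8177, 2 without tTA + Doxy array 7424, 3 without FVBN + Doxy array 8340 or tTA array 9322 and 4 without tTA array 7311. The cause of these changes was not tested. Of 114 called named probe sets, 55 kept the call under every alternative run and 0 turned direction. Myh7, not called, turned to 0.00439 with arrays scaled to the same median and ran from -0.19 to 0.0745 as arrays were left out. Scaling each array moved the median of all genes from -0.0134 to 0.00031. No paired analysis was possible because the genotypes share no array numbers. With 4 and 5 arrays per group, small differences in dim genes pass less readily, and a probe set at the floor has no order.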

Other observations

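Transcription and translation genes outside the lists described above gave scattered calls. Of 22 tested nuclear transport genes 2 rose, the import receptor Ipo5 (0.46) and the export factor Cse1l (0.30), and 1 fell, Kpnb1 (-0.15, lost under 12 of 19 alternatives). A second Ipo5 probe set was not called (0.08, adjusted p = 0.388). Of 51 translation factors and tRNA synthetases 3 rose, Hars (0.30), Qars (0.27) and Eif2b5 (0.21), and 1 fell, Eef1b2 (-0.17, lost under 6 of 19). A second Eif2b5 probe set was not called (0.10, adjusted p = 0.477). Of 38 cell cycle and replication genes 2 rose, Rpa1 (0.27) and Bub3 (0.23), and 3 fell, Mcm2 (-0.19), Mcm3 (-0.24) and Ccng2 (-0.32); the 3 falls became 0 when array 8337 or 7488 was left out, 1 when 8341, 7399 or 7486 was, and 0 after adjustment for the beta-actin ratio. The clock repressor Nr1d1 (-0.34) and the phosphatase gene Dusp1 (-0.31) were each the only called gene of their list, of 13 clock and 29 immediate early genes; Nr1d1 lost its call under 6 of 19 alternatives. Of 29 RNA polymerase II and mediator genes 2 rose, Polr2d (0.17) and Gtf2a2 (0.21); neither was called without array 8341, 7485 or 7486, 1 was called without 8338, 7399 or 7488, and Polr2d lost its call under 8 of 19. Of 19 TGF-beta and BMP signaling genes 1 fell, Tgfb1 itself (-0.18, lost under 9 of 19), and of 14 glutathione S-transferases 1 rose, Gstz1 (0.24, lost under 8 of 19). Of 12 prostaglandin and eicosanoid genes Pla2g5, a secreted phospholipase, rose (0.29) beside the fall of Ptgds. A second Pla2g5 probe set was not called (0.21, adjusted p = 0.0934).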
